A study of Bos taurus with 34 samples.

Results

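The 17 libraries sampled at day 45 came from 11 dairy cows with subclinical endometritis (SCE) and 6 healthy cows, and were compared for the levels of cell-free miRNAs in blood. They were chosen by the sampling day and animal status in the labels, 17 of the 34 libraries of the series, with 1 library per cow. Status had been set by examining cells and biopsies of the endometrium, and the study's stated aim was to predict SCE from circulating miRNA. The labels name no treatment, transgene or pooling for either group, and breed, age and parity are not stated there. Both groups were sampled at what the labels call day 45 and the series' design text calls 44 days postpartum, and the tissue is blood serum in the labels but plasma in the design text. The replicates are separate cows, so the p-values of comparisons within 1 day measure the spread between animals.

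Subclinical endometritis is a lasting inflammation of the lining of the uterus that shows no clinical signs. A miRNA is cut from a hairpin precursor, which has a 5p and a 3p arm. One arm is usually kept in the silencing complex, where it pairs with messenger RNAs and lowers their translation or stability, while the other arm is mostly degraded. miRNAs found free in blood are released by red cells, platelets, white cells, the vessel wall and solid organs, and are carried in vesicles or bound to protein. In such a sample, release from more cells and more release per cell cannot be told apart. Names below are bovine, without the species prefix.

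The most abundant miRNA in most libraries was miR-486, which red cells hold in quantity. It took 14.7 to 73.0% of counts in healthy and 3.95 to 52.1% in SCE cows, and outranked every other name in all 6 healthy libraries and in 7 of the 11 SCE ones. miR-191 came first in 3 SCE libraries and miR-192, known from liver and gut, in 1. Total counts per library lay between 7398849 and 28872153 in healthy cows and between 678389 (SCE cow 10) and 19747294 in SCE cows. The number of miRNAs detected lay between 348 and 555 in healthy libraries and between 348 and 646 in those of SCE cows. miR-122, the main hepatocyte miRNA, averaged 17.6 CPM, counts scaled for library size, and 3 of the 7 deposited miRNAs of striated muscle were abundant enough to test. Healthy cow 2 stood apart in having the highest miR-486 share and, with SCE cow 10, the fewest miRNAs detected. The titles of healthy libraries carry numbers between 13 and 24 and those of SCE libraries numbers between 31 and 52, so status and any order of preparation that followed them cannot be told apart.

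No miRNA passed the test between statuses. Of 382 miRNAs with enough counts, edgeR's quasi-likelihood test called 0 (0%) at an adjusted p of 0.05, and limma-voom likewise 0. DESeq2 called 1 of 749 (0.134%), miR-150. At an unadjusted edgeR p under 0.05 stood 39 miRNAs (10.2%), of which 21 were higher in SCE cows (5.5%) and 18 lower (4.71%), and limma-voom put 32 there. The split depended on scaling: it was 14 higher and 24 lower with upper quartile scaling and 64 higher and 0 lower with library totals alone. The median log2 fold change of SCE over healthy cows was 0.11 with TMM scaling, which trims extreme miRNAs, -0.01 with upper quartile scaling and 0.71 with totals alone. TMM factors were 0.383 to 1.33 in healthy and 0.813 to 1.86 in SCE libraries. Fold changes below are log2 values of SCE over healthy cows from edgeR with TMM, levels are TMM-normalized CPM unless stated otherwise, and those of miRNAs not called are given as values only.

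**Figure D1:**
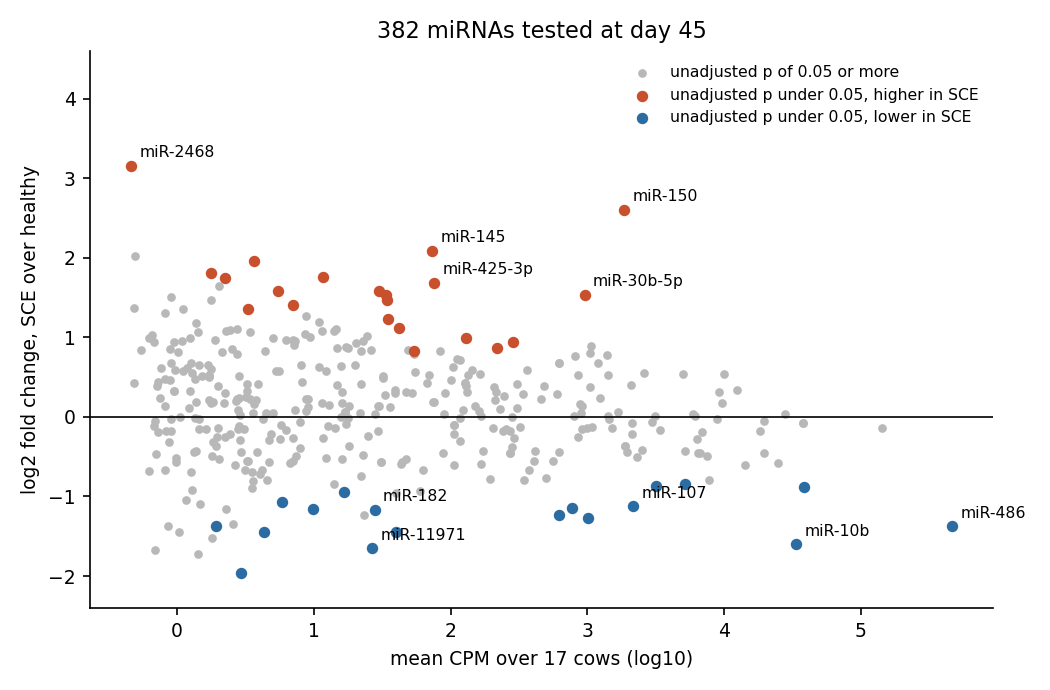
Log2 fold change of SCE over healthy cows at day 45 against mean level (log10 CPM over 17 cows) for the 382 miRNAs tested, 1 point per miRNA. Coloured points had an unadjusted edgeR p under 0.05, 21 above and 18 below the zero line; none was called after adjustment. miR-150 and miR-2468 lie highest, miR-486 is the most abundant.

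The balance between the arms of a hairpin differed with status for miR-296 and miR-425, and less certainly for miR-2419. The ratio of the less to the more abundant arm is taken within a library, so no scaling factor enters it. It was tested for each hairpin with exactly 2 names tested above, which left out miR-193a with its 3 names, after 1 had been added to each count, with an exact two-sided permutation test of the group means over all 12376 assignments of statuses to cows. By this test 3 of 28 hairpins were called at an adjusted p of 0.05 (10.7%), miR-296, miR-425 and miR-2419, and 7 stood at an unadjusted p under 0.05 (25%). The arm ratios were added after the values of single miRNAs had been seen. In 19 of 28 hairpins (67.9%) the less abundant arm was relatively higher in SCE cows, with a median difference of 0.57 on the log2 scale.

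miR-296, known from work on blood vessel growth, was counted mainly from its 3p arm. miR-296-5p made up 0%, 0.488% and 0.798% (lowest, median, highest) of the counts of both arms in healthy cows, and 0.842%, 1.54% and 3.54% in SCE cows. All 11 SCE cows lay above all 6 healthy cows. The log2 ratio of 5p to 3p was -8.15 ± 1.61 (SD, n = 6) in healthy and -5.85 ± 0.56 (SD, n = 11) in SCE cows. The 5p arm thus rose by 2.30 relative to the 3p arm (exact permutation p = 8.1e-05, the smallest this design can give, adjusted p = 0.0023). The nearest cows of the groups were not separated by counting error. In healthy cow 1, 42 counts of 5p beside 5219 of 3p gave a 95% exact binomial interval of 0.576 to 1.08%, and in SCE cow 17, 110 beside 12953 gave 0.693 to 1.01%. Healthy cow 2 had no count of the 5p arm beside 2606 of the 3p arm, which allows a share of up to 0.115%. Without that cow the difference was 1.66, the lowest over cows left out, and the call held for each of the 17 cows left out (exact permutation adjusted p at most 0.0064). The arms had log2 fold changes of 1.41 for miR-296-5p (SE 0.57, edgeR adjusted p = 0.460) and -0.44 for miR-296-3p (SE 0.38). For the level of the 5p arm SCE cow 10 alone was within the healthy range. The counts behind the 5p arm were low, with medians of 50 in healthy and 92 in SCE libraries.

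miR-425 comes from a locus that also holds miR-191. miR-425-3p, its less abundant arm, made up 1.83%, 4.08% and 5.85% of the hairpin's counts in healthy cows and 5.62%, 9.72% and 19.4% in SCE cows (lowest, median, highest). The groups overlapped narrowly: SCE cow 7 fell within the healthy range, SCE cow 8 stood level with healthy cow 2 at 5.85%, and the other 9 SCE cows lay higher. The log2 ratio of 3p to 5p was -4.67 ± 0.63 (SD, n = 6) in healthy and -3.23 ± 0.70 (SD, n = 11) in SCE cows, a rise of 1.44 (exact permutation p = 7.3e-04, adjusted p = 0.010). It was called without each of the 17 cows in turn (exact permutation adjusted p at most 0.045). Counts here were higher, with medians of 430 and 838 for the 3p arm. As a level, miR-425-3p was at 9.42, 30.2 and 51.4 CPM in healthy and 18.5, 73.8 and 240 CPM in SCE cows, where SCE cow 8 alone fell within the healthy range. miR-425-5p was at 253, 1002 and 1185 CPM in healthy and 298, 828 and 2047 CPM in SCE cows, so the ranges overlapped almost fully, with a log2 fold change of 0.17 (SE 0.43). Its locus neighbour miR-191 had a log2 fold change of -0.14 (SE 0.49) with TMM and 0.36 with library totals alone, where it took 11.6 ± 6.34% of counts (SD, n = 6) in healthy and 14.9 ± 10.7% (SD, n = 11) in SCE cows.

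miR-2419, a hairpin named in cattle, had few counts of its 3p arm, with medians of 12.5 in healthy and 15 in SCE libraries. That arm passed the low-count filter mainly through SCE libraries, and the filter's part in the called ratio was not tested. The 3p arm made up 0.0901%, 0.275% and 0.570% of counts in healthy and 0.113%, 0.829% and 2.04% in SCE cows (lowest, median, highest). In 9 of 11 SCE cows the log2 ratio lay above every healthy cow, and SCE cow 13 was in the lower part of the healthy range. The log2 ratio of 3p to 5p rose by 1.54 (exact permutation p = 0.0048, adjusted p = 0.044), but of the 17 fits that left out a cow 13 lost the call. The 4 that kept it left out healthy cows 5 and 6 and SCE cows 7 and 13. It also ended with 0.5 in place of 1 added to each count (adjusted p = 0.061), so this hairpin is the least certain of the 3.

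Beside these ratios, log10 total counts averaged 7.18 ± 0.22 (SD, n = 6) in healthy and 6.90 ± 0.40 (SD, n = 11; difference -0.28, exact permutation p = 0.125) in SCE libraries, and the part of depth in the arm ratios was not tested. Other hairpins at an unadjusted exact permutation p under 0.05 were miR-423 (0.67), miR-126 (0.59), miR-345 (1.88) and miR-2411 (2.15), none called (adjusted p = 0.138 for miR-423 and 0.149 for the other three). miR-331 had the most negative difference, at -2.02 (exact permutation p = 0.070, adjusted p = 0.219), with 5 of 11 SCE cows below every healthy cow.

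**Figure D2:**
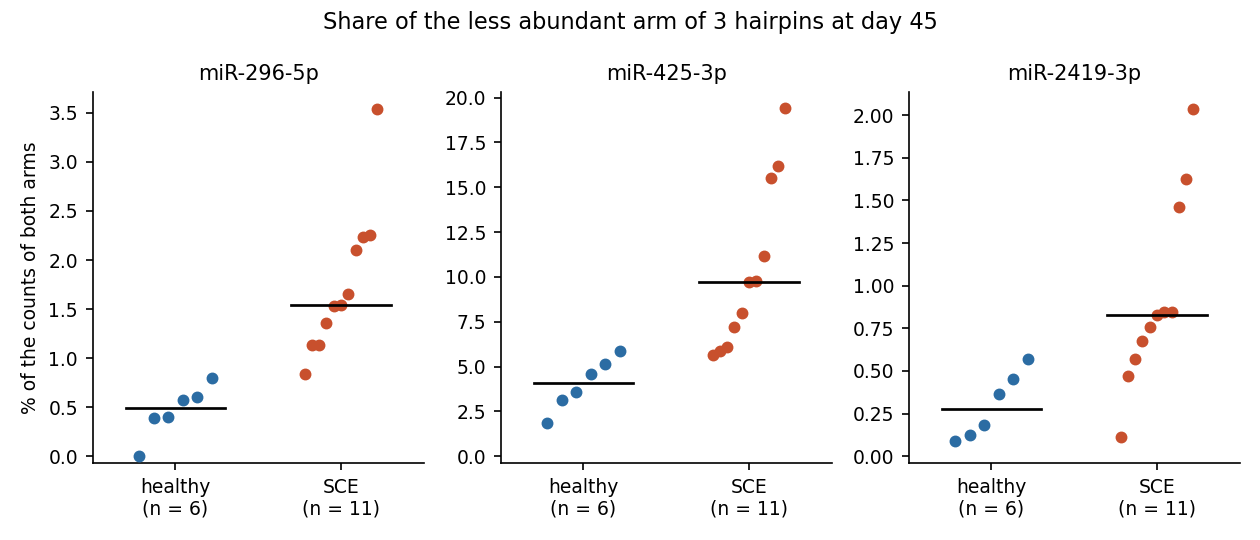
Share of the less abundant arm in the summed counts of both arms (%, linear axis) for miR-296, miR-425 and miR-2419, 1 point per cow, with the median as a bar (healthy n = 6, SCE n = 11). All 11 SCE cows lie above the healthy cows for miR-296-5p, and 9 of 11 for miR-425-3p, where SCE cow 8 is level with the highest healthy cow and SCE cow 7 below it.

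At day 25, in 5 healthy and 11 SCE libraries of the same cows, the arm ratios were tested in the same way. There 5 of 28 hairpins were called (17.9%), and in 22 of 28 (78.6%) the less abundant arm was relatively higher in SCE cows. miR-425 was among those called, with a difference of 1.55 (exact permutation p = 0.0048, adjusted p = 0.034), and so were miR-2299, miR-151, miR-99a and miR-345. miR-296 was not, at 0.59 (exact permutation p = 0.334, adjusted p = 0.467), with none of 11 SCE cows above every healthy cow. Whether an arm ratio differed more on one day than on the other was not tested. The cows are the same on both days, so the days are not independent.

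Among single miRNAs the lowest p belonged to miR-150, which is abundant in mature lymphocytes and restrains the transcription factor MYB. It was at 164, 259 and 911 CPM in healthy cows and at 317, 1410 and 12523 CPM in SCE cows (lowest, median, highest). Healthy cows 2 and 4 held the highest healthy levels, while 8 of 11 SCE cows lay above all 6 healthy cows; SCE cow 15 held the highest level. The log2 fold change was 2.60 (95% interval 1.17 to 4.03, edgeR adjusted p = 0.277). It was called by DESeq2 (adjusted p = 0.042), by edgeR with library totals alone (3.39, adjusted p = 0.022) and by edgeR with miR-451 over miR-23a (log2), a gauge of red cell RNA, as a covariate (2.82, adjusted p = 0.019). Over the 13 alternatives to the reported fit that kept all cows or left out a fixed set, edgeR, limma and DESeq2 adjusted p ranged from 0.019 to 0.320. Without SCE cow 15 the log2 fold change was 1.92, and over the 17 cows left out the edgeR adjusted p ranged from 0.094 to 0.461. The covariate's denominator, miR-23a, is on the neutrophil and monocyte list and had a log2 fold change of 0.52 (SE 0.35).

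The other lymphocyte miRNAs lay on the same side of zero, mostly by smaller amounts. The lymphocyte list, like those below, was chosen with earlier results of these data known, so its counts are descriptions only. All 10 tested members of the list had a higher value in SCE cows, with a median log2 fold change of 0.68. Over all 382 miRNAs tested 218 were higher (57.1%) and 164 lower (42.9%), with a median of 0.11. Of the list, 0 were called. At an unadjusted edgeR p under 0.05, 4 of the 10 were higher, beside 21 of 382 (5.5%) over all miRNAs tested. With DESeq2 size factors, with upper quartile scaling, or without the 4 libraries with fewer than 400 miRNAs detected (healthy cows 2 and 3, SCE cows 8 and 10), 9 of 10 were higher. Those at low p were miR-150, miR-28 at 0.99 (SE 0.42), and miR-29b at 1.23 (SE 0.56) and miR-29c at 0.94 (SE 0.38), relatives that repress collagens and other matrix genes. miR-29c was at 114, 180 and 247 CPM in healthy and 95.8, 322 and 619 CPM in SCE cows. For it, 8 SCE cows lay above every healthy cow and SCE cow 7 below every one. miR-342, also rich in lymphocytes, stood at 0.77 (SE 0.45), whereas the most abundant member, miR-181a, was at zero within its error (0.01, SE 0.37) and was the member that turned, to -0.10 with upper quartile scaling. Summed and as shares of library totals, the list took 0.332 to 1.95% of counts in healthy cows (median 0.575%). In SCE cows it took 0.723 to 2.73% (median 1.37%), with no member at 0 in all libraries. On this scale the median log2 fold change over all 382 miRNAs tested was 0.71.

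Neutrophil, monocyte and inflammation-induced miRNAs were more evenly spread. Of 10 tested members of the neutrophil and monocyte list 7 were higher and 3 lower (median 0.52, and 0.41 with upper quartile scaling), none at an unadjusted edgeR p under 0.05. On the same scale the list took a median of 1.57% of counts in healthy and 2.96% in SCE cows. Its most abundant member, miR-142-5p, had a log2 fold change of -0.06 (SE 0.35) with TMM and 0.56 with library totals alone, where it took 1.57 ± 0.92% of counts (SD, n = 6) in healthy and 2.32 ± 0.85% (SD, n = 11) in SCE cows. The inflammation-induced list, with miR-21, miR-146, miR-155 and miR-221, had 5 of 9 members higher and 4 lower (median 0.03, but -0.11 with upper quartile scaling), again none at an unadjusted edgeR p under 0.05. miR-21-5p, which rises in many inflamed tissues, took 2.09 ± 2.31% of counts (SD, n = 6) in healthy and 3.18 ± 3.67% (SD, n = 11) in SCE cows, a difference within the spread of either group, and its log2 fold change was 0.03 (SE 0.62) with TMM and -0.11 with upper quartile scaling.

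Red cell and platelet lists had more members lower than higher. Of 12 red cell miRNAs 4 were higher and 8 lower (median -0.20), and of 14 platelet miRNAs 5 and 9 (median -0.11). Library totals alone turned both, with 8 of 12 (median 0.59) and 12 of 14 (median 0.48) higher. Both medians were below the median of 0.71 over all miRNAs tested on that scale. miR-486 had a log2 fold change of -1.37 (SE 0.56, edgeR adjusted p = 0.460), and its share of counts was 46.2 ± 21.0% (SD, n = 6) in healthy and 31.3 ± 17.1% (SD, n = 11; exact permutation p = 0.132) in SCE cows. miR-451, which needs no Dicer and marks red cells, was at 1024, 4578 and 15324 CPM in healthy and 794, 4764 and 16163 CPM in SCE cows, nearly the same range, with a log2 fold change of -0.27 (SE 0.61). Without healthy cow 1 its sign turned, to 0.23. miR-182, a stress-linked miRNA also found in red cells, was at 30.0, 38.5 and 62.7 CPM in healthy and 7.54, 18.3 and 53.0 CPM in SCE cows. There 10 of 11 SCE cows lay below every healthy cow, SCE cow 9 being the exception (log2 fold change -1.17, SE 0.41, edgeR adjusted p = 0.360). miR-183 of the same cluster stood at -0.28 (SE 0.63).

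**Figure D3:**
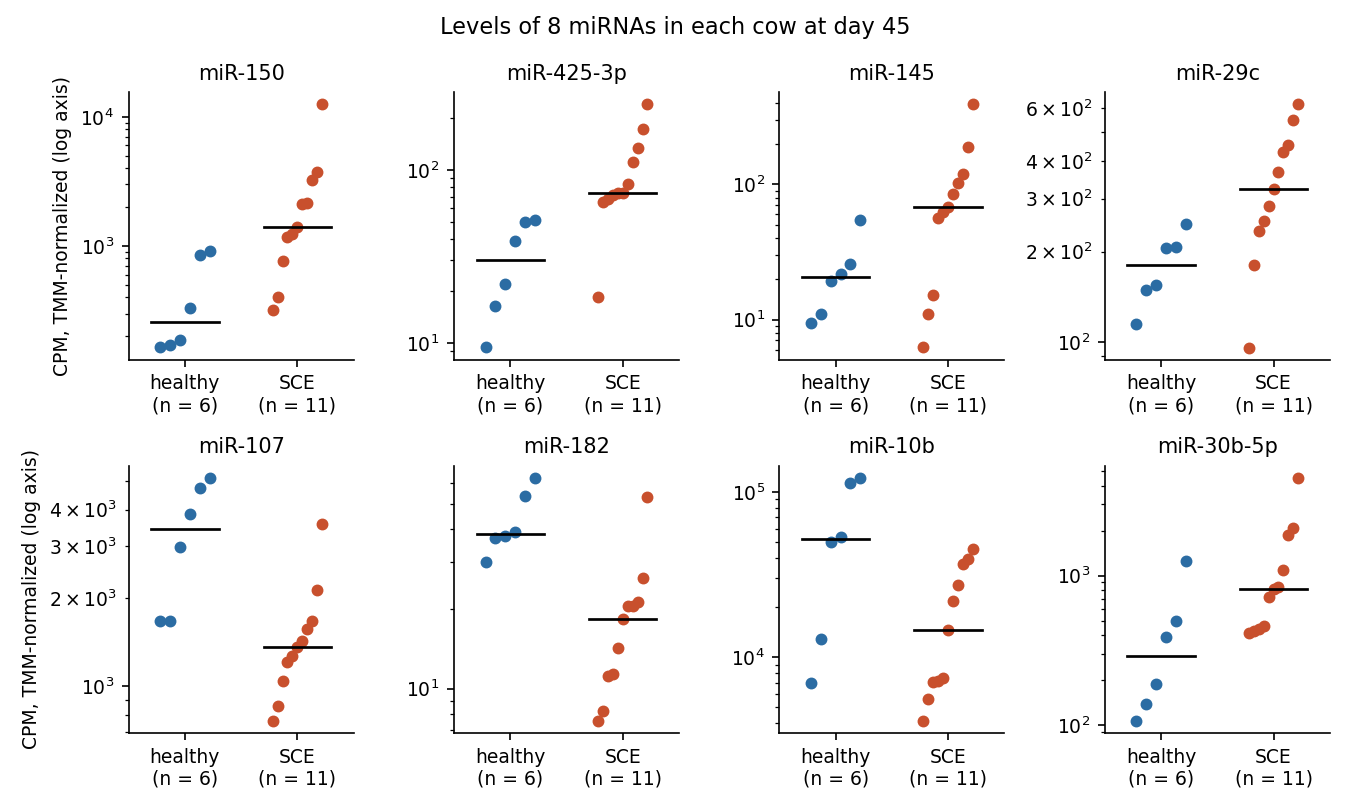
TMM-normalized CPM (log axis) of 8 miRNAs in each cow at day 45, 1 point per cow, with the median as a bar (healthy n = 6, SCE n = 11). miR-150, miR-425-3p, miR-145, miR-29c and miR-30b-5p have the higher median in SCE cows and miR-107, miR-182 and miR-10b the lower one, and the groups overlap in every panel.

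No miRNA had all 11 SCE cows above or below all 6 healthy cows. At least 10 of the 11 SCE values exceeded the highest healthy one for 2 of 382 miRNAs (0.524%), miR-425-3p and miR-296-5p, and below for 1 (0.262%), miR-182. At least 8 lay above for 8 miRNAs (2.09%) and below for 4 (1.05%). Those above were completed by miR-2468, miR-150, miR-145, miR-29c, miR-187 and miR-139, and those below by miR-107, miR-493 and miR-1839. miR-139 was at 2.70, 12.4 and 16.6 CPM in healthy and 8.04, 20.6 and 36.6 CPM in SCE cows (log2 fold change 0.87, SE 0.44). miR-2468 and miR-187 rest on few reads. Both passed the low-count filter through SCE libraries alone, so low healthy levels were built into their entry. Their separation is therefore a description only, and the count of 8 above includes them. Over all libraries miR-2468 had 5 counts in healthy and 103 in SCE cows, and 2 SCE cows had none. miR-187 had 11 counts in healthy and 87 in SCE cows.

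The near-identical miR-103 and miR-107 both lay lower in SCE cows. They lie within pantothenate kinase genes and are known to act in lipid and glucose metabolism. miR-107 was at 1665, 3434 and 5137 CPM in healthy and 761, 1363 and 3575 CPM in SCE cows. It was below every healthy cow in 9 of 11 SCE cows, while SCE cow 9 held the highest SCE level. The log2 fold change was -1.13 (SE 0.36, edgeR adjusted p = 0.277), and that of miR-103 was -0.85 (SE 0.34), with 5 of 11 SCE cows below every healthy cow. Reads of near-identical relatives such as these may have been split between names, and the counting rule is not stated.

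miRNAs of the vessel wall and stroma lay on both sides of zero. Of 17 tested members 5 were higher and 12 lower in SCE cows (median -0.51), with 13 higher and 4 lower by library totals alone (median 0.38) and 8 higher and 9 lower without the 4 libraries of few miRNAs. miR-143 and miR-145, made from neighbouring hairpins and typical of smooth muscle, went apart. miR-145 was at 9.42, 20.5 and 54.7 CPM in healthy and 6.21, 68.0 and 393 CPM in SCE cows. It lay above every healthy cow in 8 SCE cows and below every one in SCE cow 14, with a log2 fold change of 2.09 (SE 0.68, edgeR adjusted p = 0.277). miR-143 stood at -0.18 (SE 0.75), with 3026, 9482 and 47594 CPM in healthy and 1525, 5309 and 109750 CPM in SCE cows. SCE cow 13 held the highest level of both. The fold change of miR-143 was -1.25 without SCE cow 13, 0.43 without healthy cow 2 and 0.61 with library totals alone. miR-497 and miR-195, of a shared cluster that acts on the cell cycle, were at 1.11 (SE 0.52) and 0.66 (SE 0.54).

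Lower in SCE cows were most members of the clusters of miR-99, miR-100 and miR-125, which dampen growth signalling through mTOR, and of miR-10, which lie among the HOX genes. Of 8 tested, 1 was higher and 7 lower (median -0.91), with 0 called. At an unadjusted edgeR p under 0.05, 4 of the 8 were lower, beside 18 of 382 (4.71%) over all miRNAs tested. By library totals alone 5 of 8 were lower (median -0.11), and without the 4 libraries of few miRNAs 6 of 8 (median -0.48). miR-10b, the most abundant, was at 7012, 51584 and 121920 CPM in healthy and 4107, 14695 and 45091 CPM in SCE cows. Healthy cows 1, 2, 3 and 5 lay above every SCE cow, 2 and 3 by far, while healthy cows 4 and 6 lay below the SCE median, and the log2 fold change was -1.60 (SE 0.56, edgeR adjusted p = 0.360). Others were miR-99b at -1.27 (SE 0.54), miR-100 at -1.24 (SE 0.53), miR-99a-5p at -1.14 (SE 0.52), miR-125a at -0.67 (SE 0.43) and miR-125b at -0.60 (SE 0.48). let-7e, clustered with miR-99b and miR-125a, stood at -0.95 (SE 0.45), although of 10 let-7 family members 5 were higher and 5 lower (median -0.04, and 9 of 10 higher by library totals alone). With library totals alone miR-125a and miR-125b turned to 0.11 and 0.26. These values depended on single healthy cows. Without healthy cow 2 miR-10b was at -1.11, miR-99b at -0.69 and miR-99a-5p at -0.52. Without healthy cow 1 miR-125a was at -0.41 and miR-125b at -0.03. Leaving out healthy cow 6 instead put miR-10b at -1.85. In healthy cow 2 miR-486 took 73.0% of counts. miR-10b was at -0.80 with miR-486 over miR-23a (log2) as a covariate, at -1.68 with miR-451 over miR-23a instead, and at -1.69 with miR-486 left out before normalization.

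Members of the miR-30 family, which share a seed and differ in few other bases, lay on both sides of zero. miR-30b-5p was at 107, 290 and 1245 CPM in healthy and 414, 819 and 4513 CPM in SCE cows, with a log2 fold change of 1.53 (SE 0.59, edgeR adjusted p = 0.460). Healthy cows 4 and 6 lay within the SCE range. Over cows left out the value ranged from 1.09 (without SCE cow 16) to 2.20 (without healthy cow 6). miR-30f stood at 1.27 (SE 0.64), miR-30c at 0.89 (SE 0.55) and miR-30d, the neighbour of miR-30b, at 0.33 (SE 0.43). miR-30a-5p stood at -0.87 (SE 0.40), and at 0.01 with library totals alone. Healthy cow 6 also had the lowest miR-10b and the smallest miR-486 share of the healthy group.

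**Figure D4:**
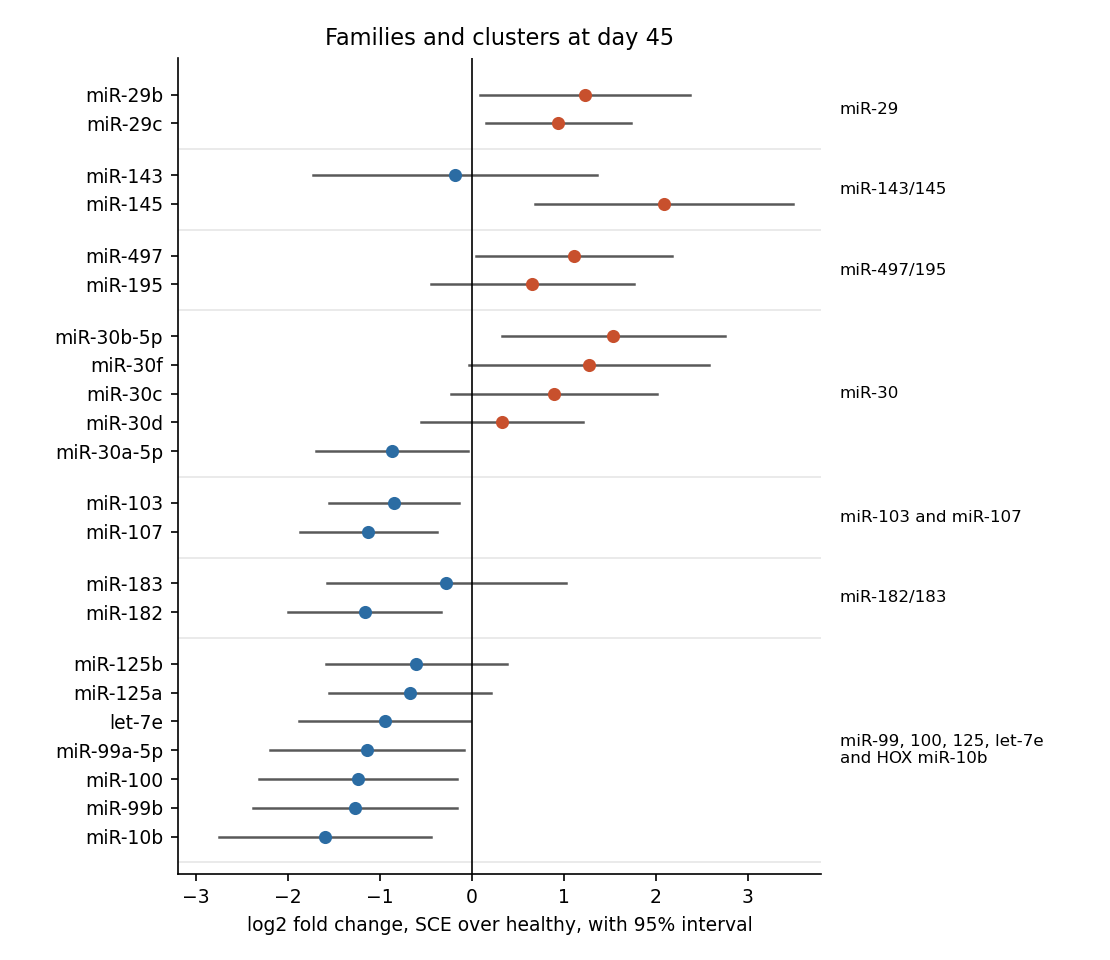
Log2 fold change of SCE over healthy cows at day 45 (points) with the 95% interval of the edgeR fit (lines) for members of 7 families or clusters. miR-145 and miR-143 of neighbouring hairpins lie at 2.09 and -0.18, and miR-30b-5p and miR-30a-5p at 1.53 and -0.87; with library totals alone miR-30a-5p, miR-143, miR-183, miR-125a and miR-125b lie above zero.

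Tissue-linked lists differed widely in level. Among the liver, epithelium, brain and striated muscle lists, the liver list held the most, 2.16 to 8.47% of counts in healthy and 2.15 to 18.5% in SCE cows. Its medians, 5.27% and 4.13%, were below those of the vessel wall and stroma list, 7.33% and 5.30%. All 7 epithelial miRNAs had a higher value in SCE cows (median 0.83; 6 of 7 with upper quartile scaling, 5 of 7 without healthy cow 6), with miR-200b at 1.75 (SE 0.84) the only member at an unadjusted edgeR p under 0.05. Its counts were few, 79 in healthy and 482 in SCE cows, and the summed list took a median of 0.143% of counts in healthy and 0.150% in SCE cows. All 6 brain-linked miRNAs tested were higher (median 0.55; 4 of 6 with upper quartile scaling), with miR-138 at 1.47 (SE 0.62). Of 10 liver miRNAs 6 were higher and 4 lower (median 0.26, and 9 of 10 higher by library totals alone). miR-192, by far its most abundant member, was at 25131, 41882 and 101180 CPM in healthy and 11817, 25195 and 89997 CPM in SCE cows. Its log2 fold change was -0.89 (SE 0.42, edgeR adjusted p = 0.460), and -0.06 with library totals alone; 5 of 11 SCE cows lay below every healthy cow. The scarce miR-885 stood at 1.96 (SE 0.88) and miR-193a-3p at 1.76 (SE 0.79). All 3 tested striated muscle miRNAs were higher (median 0.65, and 0.17 without SCE cow 10), none at an unadjusted edgeR p under 0.05. Of the ruminant miR-2284 and miR-2285 family, 14 of 39 tested members were higher and 25 lower (median -0.14), and of the imprinted DLK1-DIO3 cluster 5 of 15 were higher and 10 lower (median -0.36). By library totals alone these became 34 of 39 and 13 of 15 higher, and without the 4 libraries of few miRNAs 21 of 39 and 9 of 15. The ruminant family counts miR-2285q and miR-2285z, names with identical counts, separately. In the miR-17-92 clusters, which drive proliferation, 9 of 15 were higher and 6 lower (median 0.14); without the 4 libraries 12 were higher (median 1.33).

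The remaining miRNAs of lowest p had no list of their own. Higher values in SCE cows belonged to miR-505 (1.58, SE 0.61), miR-365-3p (1.53, SE 0.63), miR-188 (1.59, SE 0.72), miR-339a (0.86, SE 0.40) and miR-11998 (1.81, SE 0.81). Lower values belonged to miR-11971 (-1.65, SE 0.49), miR-10225a (-1.45, SE 0.47), miR-1291 (-1.45, SE 0.66) and miR-2339 (-1.37, SE 0.63). edgeR adjusted p for these ran from 0.277 to 0.460. miR-11971 was at 5.48, 35.4 and 142 CPM in healthy and 4.06, 16.3 and 27.7 CPM in SCE cows, healthy cow 2 being the highest; without that cow it was at -0.79. miR-10225a was at 18.9, 52.7 and 185 CPM in healthy and 3.23, 28.5 and 42.3 CPM in SCE cows, healthy cow 1 being the highest; without that cow it was at -0.76.

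Library measures were compared by the exact two-sided permutation test, with p adjusted over 6 measures, and none passed. The 10 most abundant miRNAs took 81.0 ± 7.78% of counts (SD, n = 6) in healthy and 72.8 ± 6.42% (SD, n = 11) in SCE cows, a difference of -8.14 percentage points (exact permutation p = 0.036, adjusted p = 0.135). These 10 names include miR-22-3p and miR-3600, whose counts were near-identical, each at a mean of 3.54% in healthy and 5.07% in SCE cows. miR-486 over miR-23a (log2) differed by -2.02 (exact permutation p = 0.045, adjusted p = 0.135) and miR-451 over miR-23a by -0.98 (exact permutation p = 0.237, adjusted p = 0.284). The number of miRNAs detected differed by 16.5 (exact permutation p = 0.728). In a principal component analysis of log levels, component 1 held 26.9% and component 2 23.6% of variance. miR-133a, miR-199a-5p and miR-145 weighed most at the high end of component 1, and miR-545-5p and miR-21-5p at its low end. miR-30b-5p and miR-30c weighed most at the high end of component 2, and miR-99b, miR-10b and miR-100 at its low end. Healthy cows ran from -16.1 to 9.09 and SCE cows from -5.78 to 14.9 on component 2, and on component 1 the ranges were -10.7 to 12.1 and -15.9 to 10.7. The statuses overlapped on both.

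**Figure D5:**
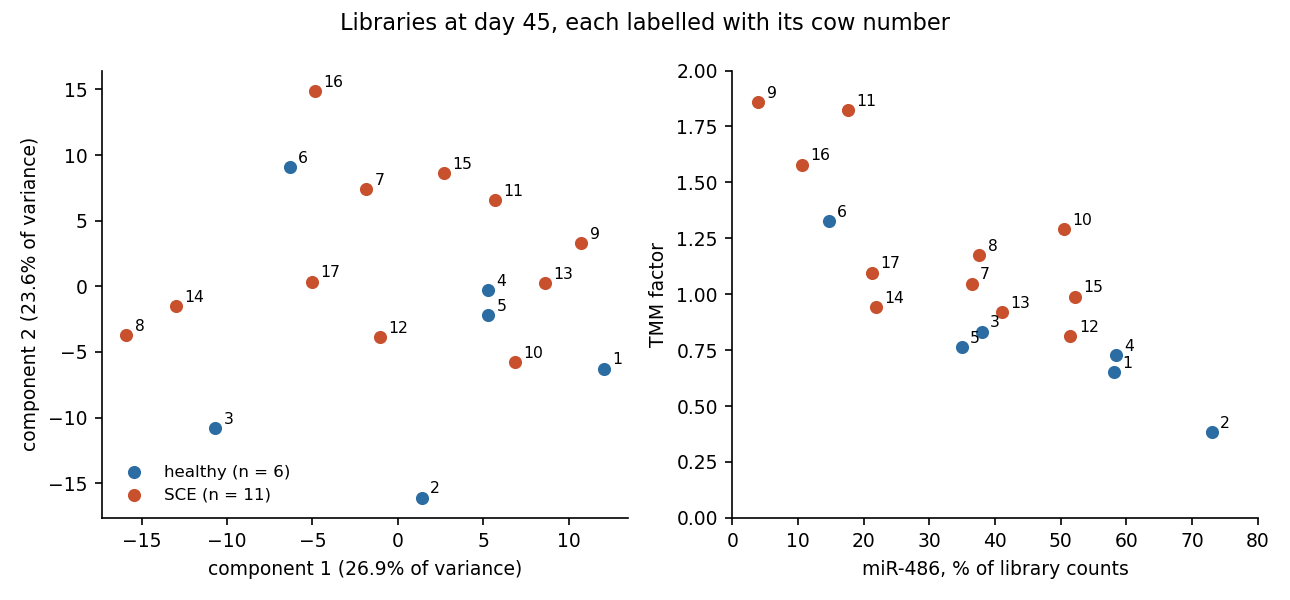
Left, scores of the 17 libraries on the first components of log levels (26.9% and 23.6% of variance). Right, TMM factor against the share of miR-486 in library counts (%), numbered by cow. Healthy cows 2 and 3 lie lowest on component 2 and SCE cow 16 highest; healthy cow 2, at 73.0% miR-486, has the smallest TMM factor, 0.383.

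The status difference at day 45 was set against that at day 25 in a joint fit of 33 libraries. This fit had no block for the cow, so its p-values and intervals take both libraries of a cow as independent. For 0 of 406 miRNAs (0%) did edgeR call a difference between the days, and 7 stood at an unadjusted p under 0.05 (1.72%). In this fit miR-150 was at 0.79 at day 25 and 2.55 at day 45, a difference of 1.77 (95% interval -0.18 to 3.71). miR-425-3p was at 2.27 and 1.62, a difference of -0.65 (-1.90 to 0.60). miR-296-5p was at -0.01 and 1.36, a difference of 1.36 (-0.07 to 2.80). miR-145 was at 1.41 and 2.06, miR-10b at -1.89 and -1.59, miR-30b-5p at 2.92 and 1.49, and miR-107 at -0.83 and -1.16, each with an interval of the difference that spans zero.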

How the data were processed

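Small RNA from cell-free blood was sequenced in 1 library per cow and day, made from 10 to 20 ng with a TruSeq small RNA kit and 13 or 16 PCR cycles, per the labels' protocols. Which library had which number is not given, and no molecular identifiers are named, so intervals of shares cover counting error only. The authors deposited whole-number read counts per mature miRNA, 800 names per file, with no normalization visible in the values. Per the submitters' processing notes, bcl2fastq 2.17.1.14, the UMD 3.1 genome and DESeq2 were used; for the aligner, counting rule and miRNA annotation no source used here gives a name. Files were joined by name. Healthy cow 3 has the same file for both days, titled as day 45 in its header; it was used at day 45 alone, leaving 33 libraries.

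Statuses were compared with edgeR 4.0.16 (R 4.3.3), by its quasi-likelihood F test with TMM scaling, the default low-count filter and Benjamini-Hochberg adjustment, two-sided, at 0.05, with only the 17 libraries in the fit. DESeq2 1.42.0 and limma 3.58.1 were alternatives. Standard errors are the absolute log2 fold change divided by the square root of F. For day 25 against day 45, the status by day interaction was fitted without the cow as a block; the animal number in the labels pairs the days, and the block was an alternative. Permutation tests enumerated all assignments of statuses, and scipy 1.17.1 was used to adjust their p-values.

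miRNAs named are the 30 of lowest p, the 10 of highest mean CPM, DESeq2 calls, the 2 most abundant members of each of 16 lists and the other arm for the first 10 by p. A same-seed part of this rule could not be applied, as no mature sequences were used here. miR-296-3p, miR-2419 and its arms, let-7e, miR-143, miR-183, miR-200b, miR-187, miR-139, miR-497, miR-195, miR-30c, miR-30f, miR-342, miR-451, miR-125a, miR-125b, miR-493, miR-1839, miR-122 and the other hairpins of the arm test were named after their values were seen. Members and lists were chosen with earlier results of these data known. The lists stand for cells or tissues that can release miRNAs and share some members. Neighbouring hairpins lie within 10 kb in RefSeq's ARS-UCD2.0 annotation, used only for that. Alternatives were other scalings, tests and filters, red cell covariates, removal of miR-486, and cows left out.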

Additional observations from a re-analysis of the deposited data

Results flagged for a closer look

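In 11 of 62 named miRNAs, 1 healthy cow stood apart from the other 5. Its gap to the nearest, as a share of the range, was larger than Dixon's 95% critical value for 6 samples. For normally distributed values chance alone does this in about 1 group of 20. The CPM were not log-transformed and the miRNAs share libraries, so 11 of 62 cannot be set against that rate. The values are TMM-normalized CPM. Healthy cow 2 was highest for miR-11971 (141.68), miR-133a (130.71), miR-30b-3p (3.42) and miR-92a (16181), and lowest for miR-296-5p (0). Healthy cow 6 was highest for miR-30b-5p (1244.8), miR-30e-5p (16407) and miR-365-3p (36.6). Healthy cow 1 was highest for miR-10225a (184.78) and miR-145 (54.7), and healthy cow 3 for miR-2339 (7.79). SCE cows, 11 in number, were too many for this check.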

How the results depend on the processing

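The count of miRNAs called between statuses, 0, became 1 (miR-150) with library totals alone, with DESeq2 and with the miR-451 ratio as a covariate, and was 0 without any of the 17 cows. The 39 of 382 at an unadjusted p under 0.05 became 64 of 382 with library totals alone. With no filter on low counts, where more miRNAs were tested, they were 85 of 756. Over cows left out they ranged from 25 of 377 (without SCE cow 16) to 63 of 393 (without healthy cow 6). Without the 4 libraries with fewer than 400 miRNAs detected, chosen after seeing the data, 28 were higher and 5 lower. Of 55 miRNAs whose fold change was followed, 42 kept their sign under every alternative that fitted them, cows left out included. Scarce ones fell below the filter in some: of 17 fits without a cow, miR-2468 was in 10, miR-187 in 11 and miR-493 in 14. With library totals alone these turned: miR-30a-5p (0.011), miR-296-3p (0.077), miR-143 (0.61), miR-183 (0.52), miR-451 (0.36), miR-125a (0.11), miR-125b (0.26), miR-142-5p (0.56) and miR-191 (0.36). With the miR-486 ratio as a covariate miR-486 was at 0.17, miR-143 at 1.19, miR-451 at 0.25, miR-142-5p at 0.071, miR-191 at 0.17 and miR-181a at -0.088; with the miR-451 ratio miR-143 was at 0.16, miR-451 at 0.44, miR-142-5p at 0.13 and miR-21-5p at -0.68. Without the 4 libraries miR-143 was at 0.49, miR-191 at 0.25 and miR-181a at -0.049. miR-181a, near zero, also turned with DESeq2 size factors (-0.0019), DESeq2 (-0.0019), upper quartile scaling (-0.097), limma-voom (-0.015), no filter (-0.031), a minimum of 10 CPM (-0.062), a dispersion shared over both days (-0.047) and without miR-486 (-0.034). miR-21-5p turned with upper quartile scaling (-0.11), limma-voom (-0.053), the minimum of 10 CPM (-0.029) and without miR-486 (-0.029). Over cows left out miR-425-5p ranged from -0.025 to 0.48, miR-143 from -1.25 to 0.43, miR-183 from -0.51 to 0.092, miR-451 from -0.55 to 0.23, miR-181a from -0.094 to 0.23, miR-142-5p from -0.17 to 0.16, miR-191 from -0.34 to 0.15 and miR-21-5p from -0.41 to 0.67; the cause was not tested. The count of hairpins with a changed arm ratio ranged from 2 to 4 over cows left out and was 2 without the 4 libraries, where miR-296 (1.59) and miR-425 (1.58) held (exact permutation adjusted p = 0.020 for each). For the difference between days, the 7 at an unadjusted p under 0.05 became 15 with DESeq2 size factors and 6 with the cow as a replicate block, with 0 called in each; under the block the difference of miR-145 turned from 0.65 to -0.18. Leaving out SCE cow 10, the shallowest library, moved no library measure past adjustment. Depth limits the arm ratios of miR-296 and miR-2419 and the values of miR-2468 and miR-187, which rest on few reads in most libraries.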

Other observations

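Detection was broad and shared between statuses. Of 800 names, 260 were counted in all 17 libraries and 44 in none. SCE libraries alone held 87 names and healthy libraries alone 21, but SCE libraries are also more numerous. No name found in SCE cows alone was in more than 5 of their 11 libraries. miR-2484, with 38 counts in 5 SCE cows, had the most counts of these, and no name found in healthy cows alone was in more than 2 of 6 libraries. No miRNA was thus present in one status and missing from the other throughout.

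Genomic neighbours shared the sign of their status difference about as often as not. Among 157 pairs of tested miRNAs from neighbouring hairpins, 81 had log2 fold changes of the same sign, with a median gap of 0.59. Arms of 1 hairpin had the same sign in 13 of 31 pairs, with a median gap of 0.95. The pairs share miRNAs and libraries, so these counts are descriptions.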
